A study of Mus musculus with 15 samples.

Results

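Fatty acid oxidation genes were described in mouse OT-I CD8 T cells as 10 members of 23284 entries in an expression table: Lipa, Cpt1a, Slc25a20, Cpt2, Acadvl, Acadl, Acadm, Hadha, Hadhb and Etfdh. They were chosen by gene symbol, and each symbol had its own entry. A gene was tested where its mean reached 1 FPKM in any population, which held for all 10 members and for 11242 genes in all. FPKM is the number of fragments scaled by transcript length and library total, so levels of different genes are compared here per length.

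There were 5 sorted populations with 3 libraries each. CD44loCD62L+, CD44+CD62L+ and CD44+CD62L- cells came from a culture of 14 days in a cocktail of IL-7, IL-21, TWS119, which inhibits glycogen synthase kinase 3, and 2-deoxyglucose, a glucose analogue that inhibits glycolysis. CD44+CD62L- cells from a 14-day culture in IL-2 and uncultured naive cells were the other two populations. All cells were from OT-I mice, whose transgenic T cell receptor recognises the SIINFEKL peptide, and both cultures were started, and restimulated once after a week, with bone marrow-derived dendritic cells coated with that peptide. The naive gate is CD44-CD62L+ in the design text and CD44loCD62L+ in the sample labels. The study describes the 3 libraries of a population as technical replicates, and the number of mice or cultures is not given in the sources used here, so all p-values measure only the spread between libraries. IL-2 and the cocktail differ in several agents at once, and cultured and naive cells differ in activation, medium and age of the culture, and these cannot be told apart.

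Mitochondrial fatty acid oxidation shortens an acyl chain by repeated rounds of dehydrogenation, hydration, dehydrogenation and thiolysis. Long chains enter the mitochondrion as carnitine esters, and the electrons of the first step of each round pass through the electron transfer flavoprotein and its dehydrogenase to ubiquinone. In mouse CD8 T cells the pathway is best known from memory cells, where fatty acids released in the lysosome by the product of Lipa and imported through Cpt1a have been described as a fuel.

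Each library had 10006 to 10473 genes at 1 FPKM or more, FPKM sums ran from 669341 to 781949, and no pair of libraries was identical. Read depth is unknown, because no counts accompany the FPKM values. Member genes varied little between libraries of a population, with a coefficient of variation of 0.206% to 9.78% and a median of 1.63%. The CD8 genes Cd8a and Cd8b1 averaged 218 and 263 FPKM or more, and the T cell gene Cd3e 241 FPKM or more, in every population. Cd4 averaged 0.305 FPKM or less, but the other genes of the CD4 T cell list differed between populations. Zbtb7b averaged 7.73, 9.19 and 9.335 FPKM in the cocktail populations, 15.03 FPKM in IL-2 cells and 0.234 FPKM in naive cells. Cd40lg averaged 7.80 FPKM in naive cells and 1.84 FPKM or less elsewhere. Foxp3 averaged 1.505 FPKM in IL-2 cells and 0.158 FPKM or less elsewhere. Marker lists of other cells did differ between populations. Summed over 8 B cell markers, cocktail libraries held 2.09 to 3.06 FPKM, IL-2 libraries 5.97 to 6.77 FPKM and naive libraries 42.6 to 43.9 FPKM. In cultured cells Cd79b made up most of this sum, at 2.74, 2.17 and 1.96 FPKM in the cocktail populations and 6.36 FPKM in IL-2 cells. The other B cell markers averaged 0.1724 FPKM or less in each cultured population. Ms4a1 and Pax5, which define B cells, were listed at 0 in all 12 cultured libraries. Summed over the 21 dendritic cell and macrophage markers with an entry, the level was 269 to 303 FPKM in cocktail libraries, 178 to 182 FPKM in IL-2 libraries and 332 to 336 FPKM in naive libraries. Cst3 and Ctss weighed most in this sum and went different ways. Cst3 averaged 110 to 146 FPKM in the cocktail populations, 129 FPKM in IL-2 cells and 64.2 FPKM in naive cells. Ctss averaged 72.1 to 112 FPKM, 24.5 FPKM and 144 FPKM in the same order. In bulk RNA, fewer cells of a type and less RNA per cell cannot be told apart.

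The 3 members whose levels differed most between populations are shown with the 250 bases before their RefSeq start, in the sense of the gene, because their promoters can be set beside their expression. Coordinates are of GRCm38.p6 on the minus strand. Capitals mark a match to one of 6 motifs.
Acadl promoter, chr1:66863310-66863559: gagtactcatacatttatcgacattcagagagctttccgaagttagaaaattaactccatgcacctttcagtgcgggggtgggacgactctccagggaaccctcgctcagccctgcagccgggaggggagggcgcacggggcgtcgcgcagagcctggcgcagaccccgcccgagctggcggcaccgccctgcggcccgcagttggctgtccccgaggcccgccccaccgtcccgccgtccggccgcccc
Acadm promoter, chr3:153944644-153944893: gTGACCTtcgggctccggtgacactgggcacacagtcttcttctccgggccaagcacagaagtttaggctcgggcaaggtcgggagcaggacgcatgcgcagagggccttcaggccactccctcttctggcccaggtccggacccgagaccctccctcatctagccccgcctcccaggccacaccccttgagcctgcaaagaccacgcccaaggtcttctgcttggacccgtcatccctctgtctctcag
Lipa promoter, chr19:34527475-34527724: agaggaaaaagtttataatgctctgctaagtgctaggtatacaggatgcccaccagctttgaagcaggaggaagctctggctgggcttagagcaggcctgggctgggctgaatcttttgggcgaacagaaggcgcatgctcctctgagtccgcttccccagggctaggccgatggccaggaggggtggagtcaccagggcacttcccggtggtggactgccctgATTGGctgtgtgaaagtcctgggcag
The Acadl promoter was rich in CpG, with 25 CpG dinucleotides and 68.0% GC. Of all 32851 RefSeq promoters of the same length, 90.4% had that many CpG or fewer, and the median promoter had 6 CpG and 52.4% GC. The Acadm promoter had 12 CpG and 64.0% GC, and the Lipa promoter had 5 CpG and 58.0% GC. Motifs were searched on both strands. The nuclear receptor motif AGGTCA was found in the promoters of 3 of 10 members, namely Acadm, Acadvl and Cpt1a, and in 14.0% of all promoters. In Acadm it lies on the strand opposite to the gene, at the far end of the window printed above. CCAAT was found in 3 members, namely Lipa, Etfdh and Cpt1a, and in 33.9% of all promoters. The direct repeat of AGGTCA with 1 base between the copies (DR1), to which PPAR and RXR dimers bind, was in 0.0335% of all promoters, and the estrogen-related receptor element TCAAGGTCA in 0.387%. Both contain AGGTCA, and neither was found in a member's window. The E-box CACGTG was in 6.02% of all promoters and the lysosomal CLEAR element, which contains it between GT and AC, in 0.240%, and the 10 windows held neither.

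**Figure D1:**
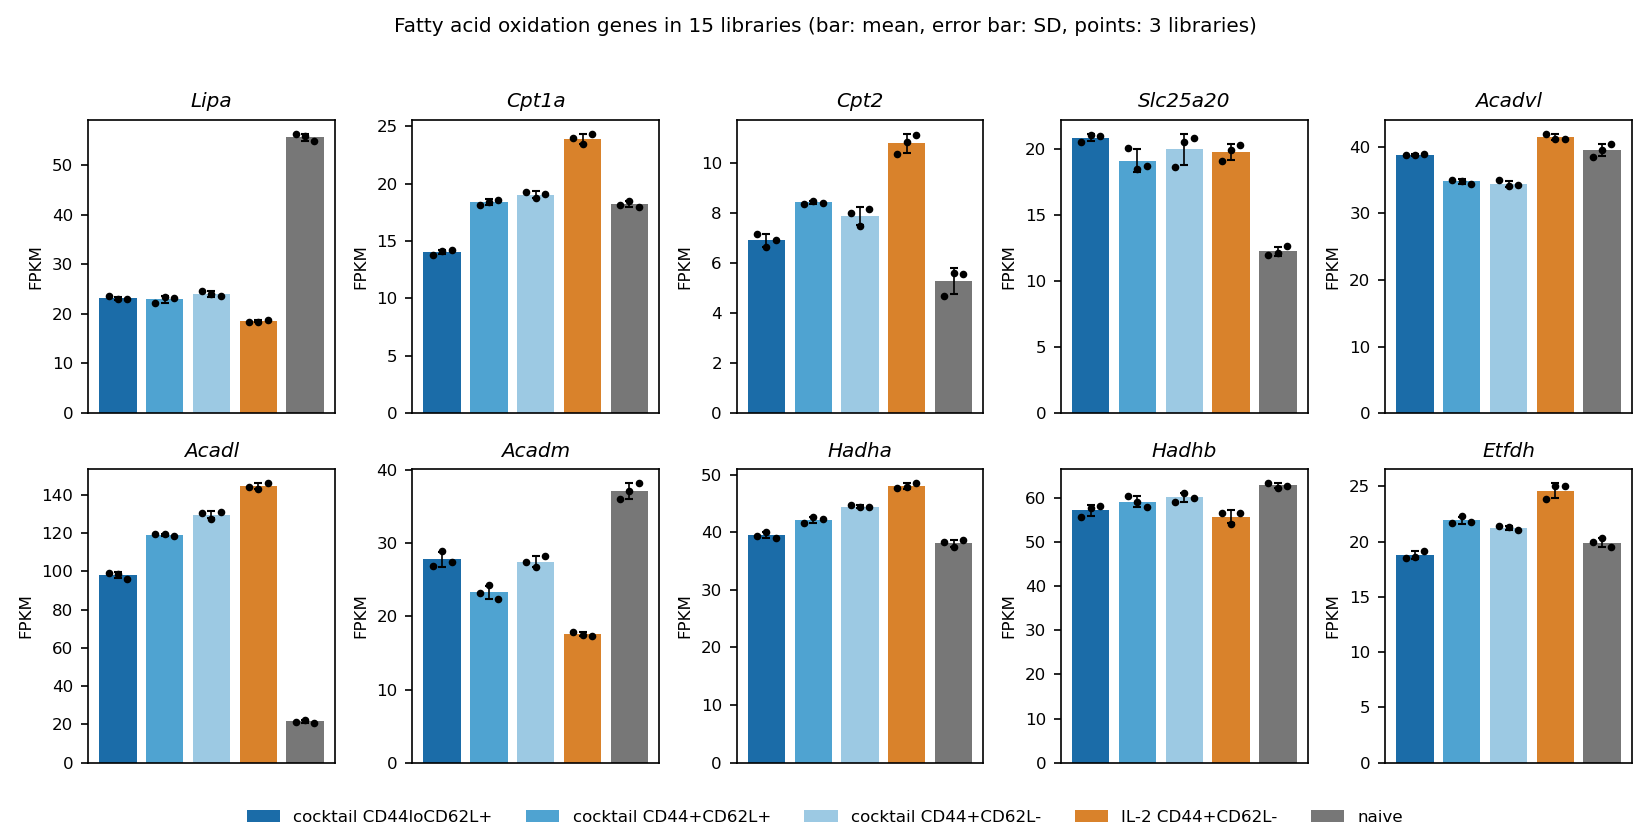
FPKM of the 10 fatty acid oxidation genes in each population, with bars for the mean of 3 libraries, error bars for the SD and points for libraries. The axis of each panel starts at 0 and has its own scale. Acadl stands lowest in naive cells at 21.5 FPKM, while Lipa and Acadm stand highest there at 55.6 and 37.1 FPKM.

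Lipa encodes lysosomal acid lipase, which frees fatty acids from triglycerides and cholesteryl esters in the lysosome (GRCm38 chromosome 19, 34492318 to 34527474, minus strand). Its level was 23.5, 23.007 and 23.003 FPKM in cocktail CD44loCD62L+ libraries, 22.2, 23.3 and 23.2 FPKM in cocktail CD44+CD62L+ libraries, 24.7, 24.0 and 23.5 FPKM in cocktail CD44+CD62L- libraries, 18.3, 18.4 and 18.8 FPKM in IL-2 libraries, and 56.2, 55.8 and 54.8 FPKM in naive libraries. Every naive library lay above every cultured library, and every IL-2 library lay below every other library. In limma on log2(FPKM + 1), Lipa fell against naive cells, with log2 fold changes of -1.23 in cocktail CD44loCD62L+, -1.24 in cocktail CD44+CD62L+, -1.18 in cocktail CD44+CD62L- and -1.54 in IL-2 cells (SE 0.0215, Benjamini-Hochberg adjusted p from 1.09e-16 to 2.8e-15). Genes count as risen or fallen (called) where the adjusted p is under 0.05 and the log2 fold change is 1 or more in either direction. Lipa was higher in the cocktail populations than in IL-2 cells by 0.31, 0.29 and 0.36 in the same order, short of that fold. The 3 cocktail populations lay within 0.07 of each other on the log2 scale. All 8 B cell markers and the neutrophil genes S100a8, S100a9 and Ngp also averaged highest in naive cells. The summed level of the dendritic cell and macrophage markers was highest in naive and lowest in IL-2 libraries, but its genes were mixed, with 4 of 13 tested genes higher at any fold in each cultured population than in naive cells. S100a8, a neutrophil gene, averaged 0.744, 2.29 and 1.67 FPKM in the 3 cocktail populations, 0.0611 FPKM in IL-2 cells and 12.7 FPKM in naive cells. Lyz2, a macrophage and neutrophil gene, averaged 11.5, 14.8 and 21.3 FPKM in the 3 cocktail populations, 0.427 FPKM in IL-2 cells and 8.22 FPKM in naive cells. Their part in the Lipa differences was not tested.

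Cpt1a, Slc25a20 and Cpt2 carry long-chain acyl groups into the mitochondrion, and none of the 3 met the call in any comparison. Cpt1a encodes carnitine palmitoyltransferase 1a of the outer membrane, the step that malonyl-CoA inhibits (chromosome 19, 3322334 to 3385733, plus strand). Its level was 13.8, 14.1 and 14.2 FPKM in cocktail CD44loCD62L+ libraries, 18.1, 18.5 and 18.6 FPKM in cocktail CD44+CD62L+ libraries, 19.3, 18.7 and 19.1 FPKM in cocktail CD44+CD62L- libraries, 24.0, 23.5 and 24.4 FPKM in IL-2 libraries, and 18.2, 18.5 and 18.0 FPKM in naive libraries. IL-2 libraries were the highest and cocktail CD44loCD62L+ libraries the lowest, without overlap with any other population. The log2 fold change between these extremes, cocktail CD44loCD62L+ over IL-2 cells, was -0.73 ± 0.0189 (SE, adjusted p = 1.77e-13), which was the largest difference of any member between cultured populations. Cpt1a in cocktail CD44+CD62L+ cells did not pass the adjusted p against naive cells (log2 fold change 0.01, adjusted p = 0.496), and its sign turned under quantile normalization.

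Cpt2 encodes carnitine palmitoyltransferase 2 of the inner membrane, which returns the acyl group to coenzyme A (chromosome 4, 107903981 to 107923610, minus strand). It was the lowest of the 10 members in every population, at 6.91 ± 0.263 FPKM in cocktail CD44loCD62L+, 8.43 ± 0.0534 FPKM in cocktail CD44+CD62L+, 7.88 ± 0.353 FPKM in cocktail CD44+CD62L-, 10.8 ± 0.388 FPKM in IL-2 and 5.29 ± 0.517 FPKM in naive cells (SD, n = 3 each). IL-2 libraries held 10.4, 10.9 and 11.1 FPKM, against 4.69, 5.62 and 5.55 FPKM in naive libraries. The log2 fold change of IL-2 over naive cells was 0.91 ± 0.0516 (SE, limma adjusted p = 6.56e-10), just short of the minimum, and reached 1.02 with a pseudocount of 0.1 in place of 1. Slc25a20 encodes the carnitine-acylcarnitine carrier that connects both transferases (chromosome 9, 108662088 to 108684641, plus strand). It averaged 20.8 ± 0.291, 19.1 ± 0.873 and 19.9 ± 1.19 FPKM in the cocktail populations in the order above, 19.7 ± 0.619 FPKM in IL-2 cells and 12.2 ± 0.349 FPKM in naive cells (SD, n = 3 each). Cultured libraries held 18.5 FPKM or more, against 12.6 FPKM or less in naive libraries, with log2 fold changes over naive cells of 0.60 to 0.72. Among cultured populations, cocktail CD44loCD62L+ over cocktail CD44+CD62L+ cells was the one pair that passed the adjusted p for Slc25a20 (0.12, adjusted p = 0.0165).

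Acadvl, Acadl and Acadm encode acyl-CoA dehydrogenases for very long, long and medium chains, which open each round of oxidation, and they went different ways. Acadl rose in all 4 cultured populations against naive cells. Acadm fell in IL-2 cells against naive cells, and Acadvl was not called in any comparison. The 3 enzymes overlap in the chain lengths they accept.

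Acadl (chromosome 1, 66830839 to 66863277, minus strand) was at 99.3, 98.7 and 96.1 FPKM in cocktail CD44loCD62L+ libraries, 119, 119.5 and 119 FPKM in cocktail CD44+CD62L+ libraries, 130.3, 128 and 131 FPKM in cocktail CD44+CD62L- libraries, 144, 143 and 146 FPKM in IL-2 libraries, and 21.4, 22.3 and 20.9 FPKM in naive libraries. No populations overlapped, and the order from low to high was naive, cocktail CD44loCD62L+, cocktail CD44+CD62L+, cocktail CD44+CD62L- and IL-2 cells. Against naive cells, the mean was 4.56, 5.54 and 6.03 times as high in the cocktail populations in their order above and 6.72 times as high in IL-2 cells. The log2 fold changes were 2.14, 2.42 and 2.54 in the cocktail populations and 2.69 in IL-2 cells (SE 0.0197, limma adjusted p from 1.32e-19 to 3.01e-18). Acadl ranked 446th, 482nd, 428th and 480th from the highest log2 fold change of 11242 genes in these comparisons, in the same order. Each neighbouring step of the order passed the adjusted p, with 2.71e-08 between cocktail CD44loCD62L+ and CD44+CD62L+ cells, 0.000248 between the 2 cocktail CD44+ populations and 6.29e-06 between cocktail CD44+CD62L- and IL-2 cells. The last of these steps, -0.16 for cocktail CD44+CD62L- over IL-2 cells, was 0.004 under quantile normalization, so its sign depends on the scaling.

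Acadm (chromosome 3, 153922357 to 153944632, minus strand) was at 26.9, 29.0 and 27.5 FPKM in cocktail CD44loCD62L+ libraries, 23.3, 24.2 and 22.4 FPKM in cocktail CD44+CD62L+ libraries, 27.4, 26.7 and 28.3 FPKM in cocktail CD44+CD62L- libraries, 17.9, 17.5 and 17.4 FPKM in IL-2 libraries, and 36.0, 37.1 and 38.2 FPKM in naive libraries. Naive libraries were all above, and IL-2 libraries all below, those of the cocktail populations. Acadm fell by 1.04 on the log2 scale in IL-2 cells against naive cells (SE 0.0336, limma adjusted p = 1.13e-12), which became a fall of 0.90 and lost the call with a pseudocount of 5. In the cocktail populations its log2 fold changes over naive cells were -0.41, -0.65 and -0.42, and those over IL-2 cells were 0.63, 0.39 and 0.62, none of them called. Cocktail CD44loCD62L+ and CD44+CD62L- cells did not pass the test for Acadm (0.02, adjusted p = 0.696), and their libraries overlapped.

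Acadvl (chromosome 11, 70010183 to 70015411, minus strand) spanned 34.1 to 42.0 FPKM over all 15 libraries. It averaged 38.8 ± 0.0798, 34.8 ± 0.316 and 34.4 ± 0.467 FPKM in the cocktail populations, 41.5 ± 0.448 FPKM in IL-2 cells and 39.5 ± 0.945 FPKM in naive cells (SD, n = 3 each). The 2 cocktail CD44+ populations were thus the lowest, with log2 fold changes over IL-2 cells of -0.25 and -0.26.

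Acadl was highest and Acadm lowest in IL-2 cells, with the reverse in naive cells. The ratio of Acadl to Acadm within a library therefore had to span a wider fold range over the populations than either level. It was 3.69, 3.40 and 3.50 in cocktail CD44loCD62L+ libraries, 5.13, 4.93 and 5.29 in cocktail CD44+CD62L+ libraries, 4.75, 4.77 and 4.63 in cocktail CD44+CD62L- libraries, 8.05, 8.20 and 8.42 in IL-2 libraries and 0.593, 0.600 and 0.547 in naive libraries. Naive cells were the one population with more Acadm than Acadl, and no populations overlapped. With 3 libraries on each side the smallest two-sided p of an exact permutation test is 0.1, and no other test of the ratio was run. Of the summed FPKM of Acadl, Acadm, Acadvl and Acads, the short-chain dehydrogenase, Acadl made up 51.3% ± 0.888, 58.7% ± 0.0255 and 59.5% ± 0.256 in the cocktail populations, 60.7% ± 0.411 in IL-2 cells and 18.6% ± 0.593 in naive cells (SD, n = 3 each). Acadm made up 14.55% ± 0.437, 11.5% ± 0.405 and 12.6% ± 0.230 in the cocktail populations, 7.38% ± 0.123 in IL-2 cells and 32.1% ± 0.600 in naive cells. The sum itself was 191 ± 1.67, 203 ± 0.902 and 218 ± 2.38 FPKM in the cocktail populations, 238 ± 0.946 FPKM in IL-2 cells and 116 ± 1.80 FPKM in naive cells.

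**Figure D2:**
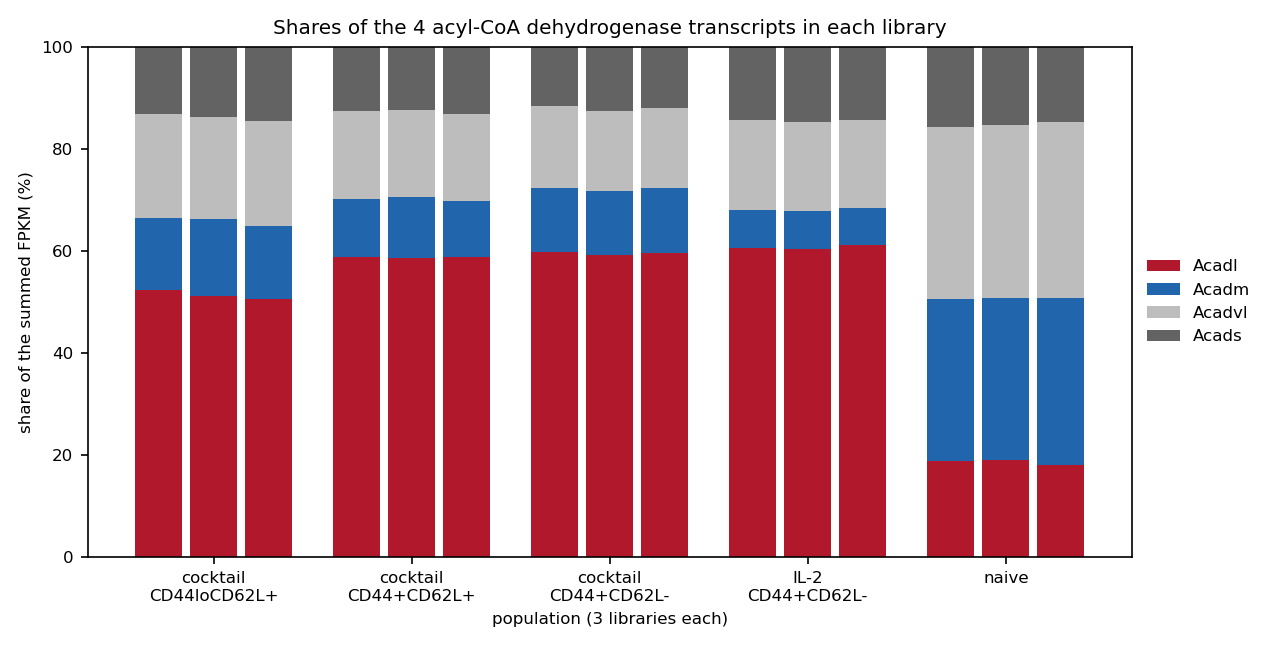
Share of Acadl, Acadm, Acadvl and Acads in their summed FPKM, in percent, with 1 stacked bar for each of 15 libraries. Acadl holds 50.5% or more of the sum in each cultured library and 19.1% or less in each naive library.

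Hadha and Hadhb encode the alpha and beta subunits of the mitochondrial trifunctional protein, which carries out the later steps on long chains. Hadha (chromosome 5, 30118304 to 30155162, minus strand) and Hadhb (chromosome 5, 30155248 to 30184593, plus strand) lie head to head, with annotated starts 86 bases apart. Hadha averaged 39.5 ± 0.522, 42.2 ± 0.543 and 44.5 ± 0.199 FPKM in the cocktail populations, 48.1 ± 0.449 FPKM in IL-2 cells and 38.1 ± 0.598 FPKM in naive cells (SD, n = 3 each). Hadhb averaged 57.2 ± 1.26, 59.2 ± 1.23 and 60.1 ± 0.992 FPKM in the cocktail populations, 55.8 ± 1.46 FPKM in IL-2 cells and 62.9 ± 0.515 FPKM in naive cells. By their means, IL-2 and naive cells were thus at opposite ends for both subunits, Hadha being highest and Hadhb lowest in IL-2 cells. For Hadhb, however, IL-2 and cocktail CD44loCD62L+ libraries overlapped and did not pass the test (limma adjusted p = 0.124). The log2 fold changes of IL-2 over naive cells were 0.33 for Hadha (limma adjusted p = 4.84e-11) and -0.17 for Hadhb (limma adjusted p = 5.08e-06), neither of them called. Hadha over Hadhb was 0.690 ± 0.0179, 0.714 ± 0.0224 and 0.740 ± 0.0150 in the cocktail populations, 0.862 ± 0.0209 in IL-2 cells and 0.606 ± 0.00734 in naive cells, so Hadhb exceeded Hadha throughout. Hadhb had the narrowest range of group means of the members, 0.17 on the log2 scale, and 1.8% of the genes tested had a range at or below it.

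Etfdh encodes the electron transfer flavoprotein dehydrogenase, which hands electrons of the acyl-CoA dehydrogenases to ubiquinone (chromosome 3, 79603788 to 79629500, minus strand). It was at 18.5, 18.7 and 19.2 FPKM in cocktail CD44loCD62L+ libraries, 21.7, 22.3 and 21.8 FPKM in cocktail CD44+CD62L+ libraries, 21.4, 21.3 and 21.1 FPKM in cocktail CD44+CD62L- libraries, 23.8, 25.03 and 25.01 FPKM in IL-2 libraries, and 19.96, 20.3 and 19.5 FPKM in naive libraries. IL-2 libraries were the highest and cocktail CD44loCD62L+ libraries the lowest, an order of extremes that Etfdh shared with Cpt1a. Its log2 fold change was -0.37 for cocktail CD44loCD62L+ over IL-2 cells (limma adjusted p = 1.3e-09) and 0.29 for IL-2 over naive cells (limma adjusted p = 1.51e-08).

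Over the 10 members and 10 pairs of populations there were 100 differences, of which 9 were called, 4 of them rises and 5 falls. The 4 rises were those of Acadl and the 5 falls those of Lipa and of Acadm described above, and every one was against naive cells. In cocktail CD44loCD62L+ over naive cells 1 member rose and 1 fell, where 17.7% of all genes tested were called, 11.6% as higher and 6.11% as lower. The same counts, 1 and 1, held in cocktail CD44+CD62L+ over naive cells, where 22.8% of genes were called (14.4% higher, 8.44% lower), and in cocktail CD44+CD62L- over naive cells, where 22.5% were called (13.9% higher, 8.59% lower). IL-2 over naive cells gave 1 rise and 2 falls, where 31.3% of genes were called (17.6% higher, 13.7% lower). All 4 comparisons share the naive libraries. Quantile normalization changed this balance. The share of rises among called genes, which was 65.5%, 63.0% and 61.8% in the cocktail populations and 56.3% in IL-2 cells, each over naive cells, became 55.4%, 52.3%, 52.0% and 48.4%. In IL-2 over naive cells it turned the majority, with 1638 rises and 1746 falls in place of 1981 and 1538. It moved the median log2 fold change of all genes to -0.114 in cocktail CD44+CD62L+ and -0.105 in cocktail CD44+CD62L- over naive cells.

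At any fold, the adjusted p alone was passed by 88.6%, 90.7%, 90.7% and 91.8% of genes in these 4 comparisons, so it says little by itself. By that measure 4 members were higher and 5 lower in cocktail CD44loCD62L+ over naive cells, 5 higher and 4 lower in cocktail CD44+CD62L+, 6 higher and 4 lower in cocktail CD44+CD62L-, and 7 higher and 3 lower in IL-2 over naive cells. The median log2 fold change of the members was -0.05, 0.07, 0.08 and 0.31 in the same order, beside -0.02, 0.00, 0.00 and 0.02 over all genes tested. Under quantile normalization the medians of the members were -0.036, 0.047, 0.065 and 0.213. Acadl carried the summed level. All 10 members together summed to 345, 369 and 388 FPKM in the cocktail populations, 405 FPKM in IL-2 cells and 310.4 FPKM in naive cells. Without Acadl the other 9 summed to 247, 250.2 and 259 FPKM in the cocktail populations, 260.4 FPKM in IL-2 cells and 289 FPKM in naive cells, so that naive cells were then the highest. Without Acadl and Lipa the 8 left summed to 224, 227 and 235 FPKM in the cocktail populations, 242 FPKM in IL-2 cells and 233 FPKM in naive cells.

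**Figure D3:**
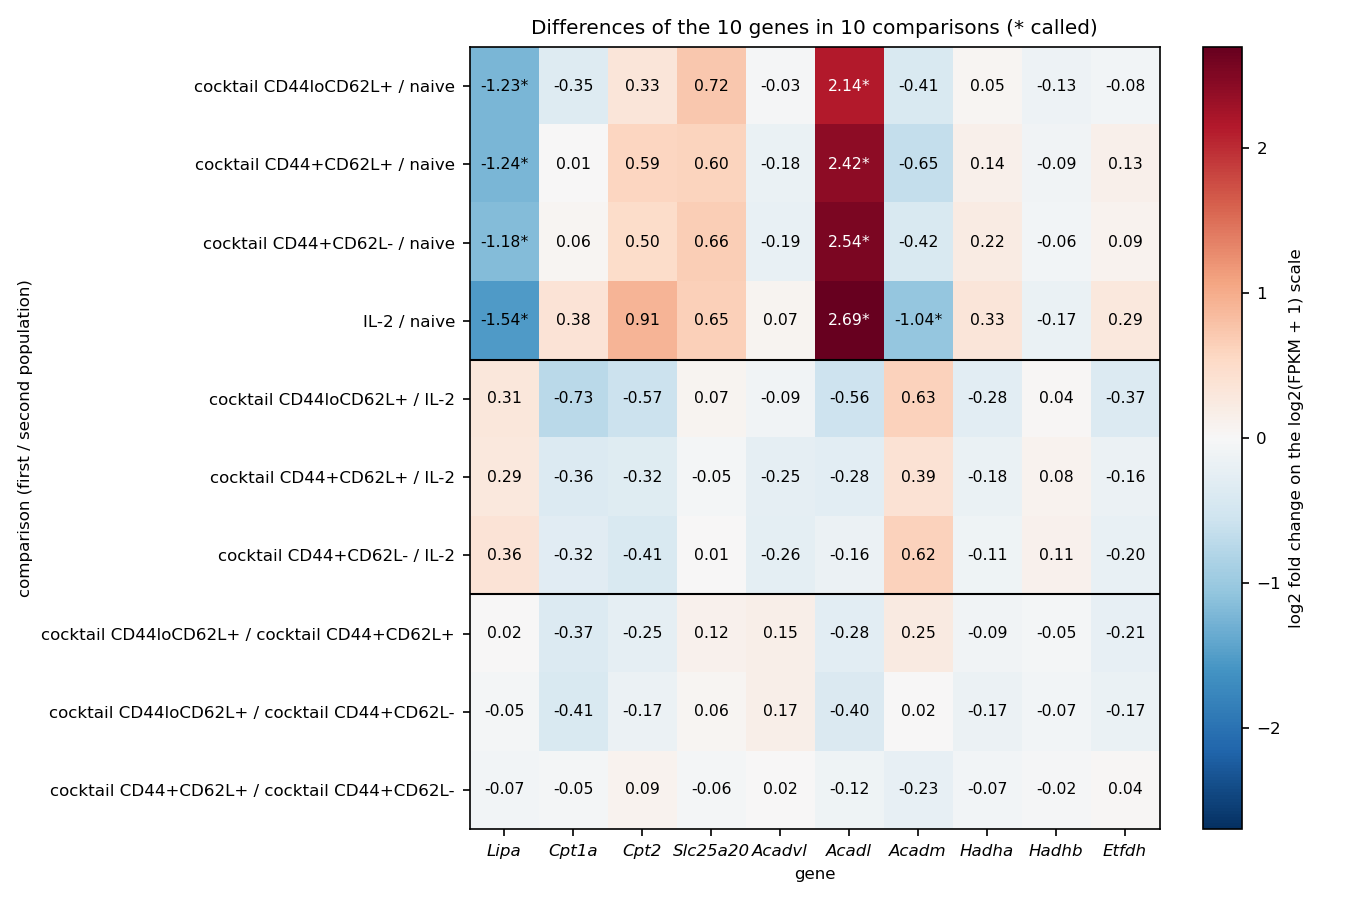
Log2 fold changes of the 10 genes, on the log2(FPKM + 1) scale, with 1 row for each pair of populations as first over second and 1 column for each gene. Asterisks mark called genes. All 9 asterisks stand in the upper 4 rows, which have naive cells as the second population, in the columns of Lipa, Acadl and Acadm.

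Set against IL-2 cells, no member was called in cocktail CD44loCD62L+, CD44+CD62L+ or CD44+CD62L- cells, where 15.8%, 8.16% and 7.85% of genes were called. The 3 comparisons share the IL-2 libraries. At any fold, Acadm and Lipa were higher in all 3 cocktail populations than in IL-2 cells, and Cpt1a, Cpt2, Acadl, Acadvl, Hadha and Etfdh were lower. Under quantile normalization the sign turned for Acadvl in cocktail CD44loCD62L+ cells (-0.09 without it, 0.04 with it) and for Acadl in cocktail CD44+CD62L- cells. Hadhb was higher in both cocktail CD44+ populations, and Slc25a20 passed in none. These counts stand against a background of 88.8%, 84.1% and 84.3% of genes that passed at any fold. The median log2 fold change of the members was -0.19, -0.17 and -0.13 in the order of populations above, beside -0.01, 0.00 and -0.01 over all genes. Quantile normalization brought these medians of the members to -0.046, -0.094 and -0.010, with 5, 7 and 5 of the 10 members below IL-2 cells in place of 6, 7 and 6, so their size depends on the scaling.

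Between the cocktail gates, no member was called either. Of all genes, 2.68% were called in CD44loCD62L+ over CD44+CD62L+ cells, 1.97% in CD44loCD62L+ over CD44+CD62L- cells and 0.116% in CD44+CD62L+ over CD44+CD62L- cells. At any fold 73.4% and 74.2% of genes passed in the comparisons of CD44loCD62L+ cells with the CD44+ populations, and 48.3% between the 2 CD44+ populations. Of the 10 members, 8 passed in each of the first 2 comparisons and 4 in the last. Cpt1a, Cpt2, Acadl, Hadha and Etfdh were lower at any fold in CD44loCD62L+ than in both CD44+ populations, and Acadvl was higher than in both. Cpt1a had the largest of these differences, at -0.37 against CD44+CD62L+ and -0.41 against CD44+CD62L- cells. Between the 2 CD44+ populations, Acadm, Acadl, Hadha and Lipa were lower in CD44+CD62L+ cells, by log2 fold changes of -0.23, -0.12, -0.07 and -0.07.

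In the spread over all 5 populations the members ran from near-constant to wide. The range of group means was 2.69 on the log2 scale for Acadl, 1.54 for Lipa, 1.04 for Acadm and 0.91 for Cpt2, beside a median of 0.84 over all genes tested. The other 6 members had narrower ranges than that median, at 0.73 for Cpt1a, 0.72 for Slc25a20, 0.37 for Etfdh, 0.33 for Hadha, 0.26 for Acadvl and 0.17 for Hadhb. Of the genes tested, 92.7% had a range at or below that of Acadl and 78.9% one at or below that of Lipa.

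Around the 10 members, 92 further genes of lipid supply, oxidation and its control were examined, of which 77 were tested. IL-2 over naive cells gave 13 rises and 5 falls among them, which is 23.4% called, beside 31.3% of all genes. Over naive cells there were 6 rises and 2 falls in cocktail CD44loCD62L+ (10.4%, beside 17.7%), 9 rises and 2 falls in cocktail CD44+CD62L+ (14.3%, beside 22.8%) and 11 rises and 3 falls in cocktail CD44+CD62L- cells (18.2%, beside 22.5%). Against IL-2 cells there were 3 rises and 6 falls in cocktail CD44loCD62L+ (11.7%, beside 15.8%), and 1 rise and 4 falls in each of the CD44+ populations (6.49%, beside 8.16% and 7.85%), where quantile normalization left 3 called in each. The called share was thus below that of all genes in each of these 7 comparisons. The median log2 fold change of these genes was -0.06, -0.01 and -0.06 in the cocktail populations and 0.16 in IL-2 cells, each over naive cells. Some calls of the genes named below were lost under quantile normalization, with sizes of 0.841 to 0.994. Over naive cells these were Acsl5, Etfa and Crat in IL-2 cells, Acsl5 and Pparg in cocktail CD44+CD62L- cells, and Plin2 in both cocktail CD44+ populations. Over IL-2 cells these were Acad10 and Fabp5 in cocktail CD44loCD62L+ cells, and Dbi and Etfb in both cocktail CD44+ populations.

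Of 10 tested genes for uptake and activation of fatty acids, 4 rose and none fell in IL-2 over naive cells, where 17.6% of all genes rose. In cocktail CD44loCD62L+ over IL-2 cells 3 of the 10 fell and none rose. Of all 11242 genes tested, 934 fell and 837 rose there, together 15.8%. Under quantile normalization 2 of the 10 were called. Fabp5, a cytosolic fatty acid binding protein, was at 42.4, 42.8 and 44.3 FPKM in cocktail CD44loCD62L+ libraries, 73.7, 72.4 and 74.2 FPKM in cocktail CD44+CD62L+ libraries, 74.2, 73.4 and 72.9 FPKM in cocktail CD44+CD62L- libraries, 91.5, 93.9 and 97.01 FPKM in IL-2 libraries and 3.78, 2.59 and 2.84 FPKM in naive libraries. Like Acadl, it was lowest in naive and highest in IL-2 libraries, and it rose by a log2 fold change of 3.45, 4.20 and 4.21 in the cocktail populations and 4.56 in IL-2 cells (SE 0.0735). Dbi, the acyl-CoA binding protein, averaged 78.0 ± 1.39, 129.7 ± 2.66 and 131 ± 5.21 FPKM in the cocktail populations, 272 ± 5.09 FPKM in IL-2 cells and 56.0 ± 0.723 FPKM in naive cells (SD, n = 3 each), and fell in all 3 cocktail populations against IL-2 cells (-1.79, -1.06 and -1.05). Cd36, a fatty acid transporter at the cell surface, was at 0.226 FPKM or less in the cocktail means and in naive cells, and at 5.16, 5.16 and 5.30 FPKM in IL-2 libraries. Acsl5, which activates fatty acids with coenzyme A, averaged 80.4, 108 and 112 FPKM in the cocktail populations, 119 FPKM in IL-2 cells and 54.0 FPKM in naive cells, with a log2 fold change of 1.12 in IL-2 over naive cells.

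Etfa and Etfb, the subunits of the electron transfer flavoprotein that Etfdh oxidises, differed more than Etfdh itself. Etfb was at 60.3, 61.1 and 63.5 FPKM in cocktail CD44loCD62L+ libraries, 86.0, 84.7 and 86.5 FPKM in cocktail CD44+CD62L+ libraries, 88.6, 87.6 and 87.8 FPKM in cocktail CD44+CD62L- libraries, 187, 188 and 186.5 FPKM in IL-2 libraries and 34.1, 34.0 and 34.7 FPKM in naive libraries. IL-2 libraries were far above all others, and naive libraries were the lowest. Etfb rose in IL-2 over naive cells by a log2 fold change of 2.41 ± 0.0161 (SE, limma adjusted p = 5.26e-20), and it fell against IL-2 cells, with log2 fold changes of -1.59 in cocktail CD44loCD62L+, -1.12 in cocktail CD44+CD62L+ and -1.08 in cocktail CD44+CD62L- cells. Etfa averaged 50.7, 55.9 and 55.8 FPKM in the cocktail populations, 81.8 FPKM in IL-2 cells and 37.5 FPKM in naive cells, and rose by 1.10 in IL-2 over naive cells.

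Among 6 further dehydrogenases, Acad10 fell in IL-2 over naive cells (-1.33), and Acad10 and Acadsb, which acts on short branched chains, rose in cocktail CD44loCD62L+ over IL-2 cells (1.00 and 1.09). Acadsb was at 8.07, 8.07 and 8.25 FPKM in cocktail CD44loCD62L+ libraries, 3.26, 3.15 and 3.44 FPKM in IL-2 libraries and 5.42, 6.13 and 6.09 FPKM in naive libraries. It averaged 6.86 FPKM in cocktail CD44+CD62L+ and 7.38 FPKM in cocktail CD44+CD62L- cells. Over IL-2 cells, the log2 fold changes in these CD44+ populations were 0.87 and 0.97 for Acadsb and 0.76 and 0.64 for Acad10, none of them called. Of 9 genes of the later steps, Decr1 and Ech1, auxiliary enzymes for unsaturated chains, rose in all 4 cultured populations over naive cells. Decr1 averaged 9.92 ± 0.495, 11.3 ± 0.299 and 11.6 ± 0.0522 FPKM in the cocktail populations, 8.997 ± 0.249 FPKM in IL-2 cells and 3.10 ± 0.153 FPKM in naive cells (SD, n = 3 each). Ech1 averaged 118.5, 123 and 133 FPKM in the cocktail populations, 148 FPKM in IL-2 cells and 56.9 FPKM in naive cells. Crat, which moves acyl groups between carnitine and coenzyme A, rose in IL-2 over naive cells (1.24), and the other 2 tested shuttle genes were not called. None of 11 tested peroxisomal genes was called by limma in any comparison. At any fold 11 of them passed the adjusted p in IL-2 over naive cells, 4 higher and 7 lower, where 91.8% of all genes passed. Beside the calls in these lists, 31.3% of all genes were called in IL-2 over naive cells. The share was 17.7% to 22.8% in cocktail populations over naive cells and 15.8% in cocktail CD44loCD62L+ over IL-2 cells.

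**Figure D4:**
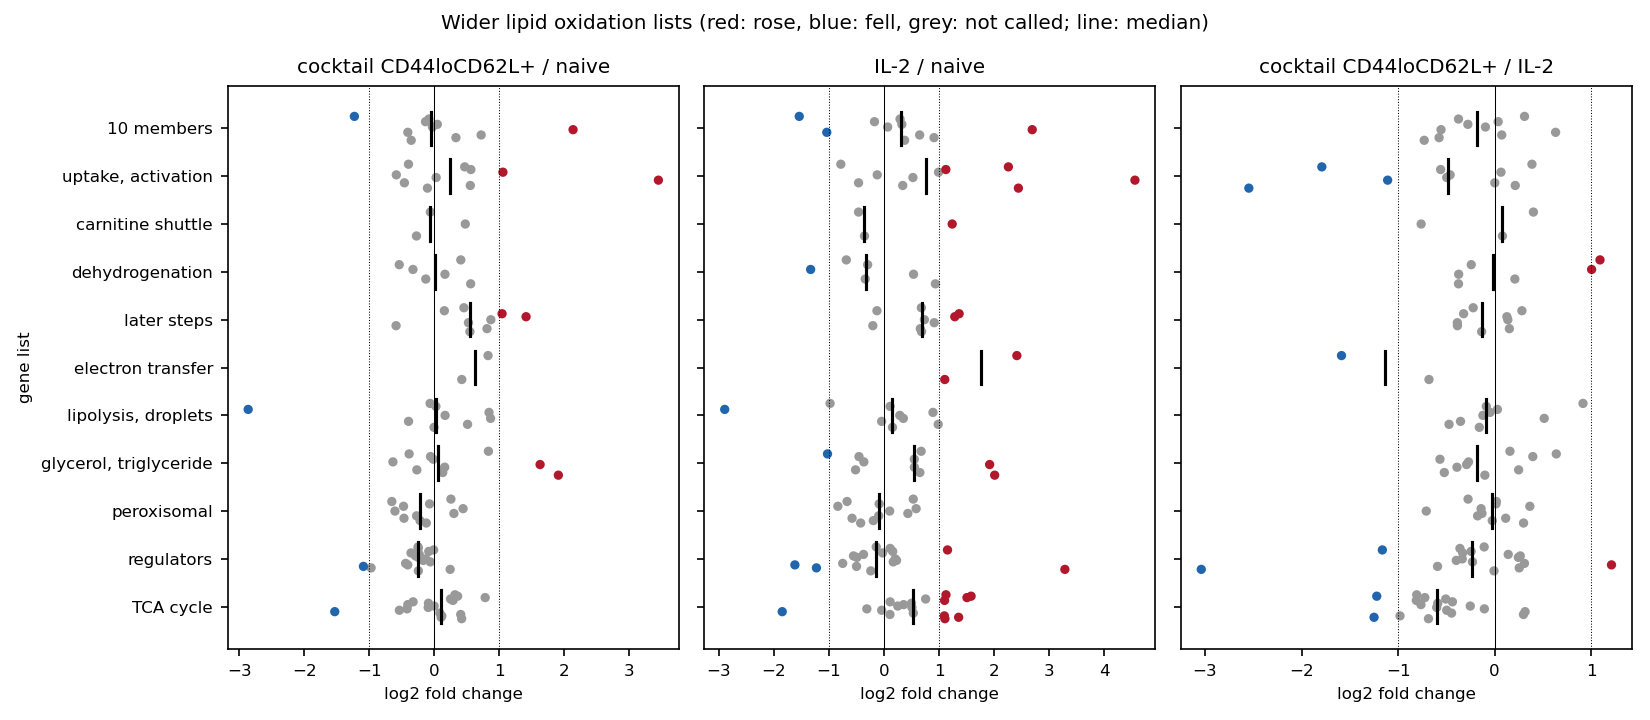
Log2 fold changes on the log2(FPKM + 1) scale of the tested genes of each list, 1 point per gene, in cocktail CD44loCD62L+ over naive cells, IL-2 over naive cells and cocktail CD44loCD62L+ over IL-2 cells. Black lines are list medians and dotted lines the minimum fold of a call. In the right panel the TCA cycle genes have a median of -0.60 and the 10 members one of -0.19, which become -0.43 and -0.05 under quantile normalization.

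Of the lipid droplet genes, G0s2, an inhibitor of the cytosolic triglyceride lipase, was at 0.391 FPKM or less in each cultured library and at 6.97, 7.13 and 7.89 FPKM in naive libraries. It fell in all 4 cultured populations over naive cells, with log2 fold changes of -2.86, -2.65 and -2.83 in the cocktail populations and -2.89 in IL-2 cells. Plin2, a coat protein of droplets, rose over naive cells in both cocktail CD44+ populations by 1.01. In the glycerol and triglyceride list, Aqp9, a glycerol channel, and Dgat1, which makes triglyceride, rose in all 4 cultured populations over naive cells. Dgat1 averaged 29.5, 33.3 and 38.9 FPKM in the cocktail populations, 36.2 FPKM in IL-2 cells and 8.85 FPKM in naive cells. Lpin1 fell in IL-2 over naive cells (-1.02).

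Among 17 tested regulators, Pparg, a fatty acid-activated nuclear receptor, was at 0.197, 0.233 and 0.178 FPKM in cocktail CD44loCD62L+ libraries, 0.690, 0.698 and 0.763 FPKM in cocktail CD44+CD62L+ libraries, 1.00, 1.15 and 1.15 FPKM in cocktail CD44+CD62L- libraries and 9.35, 8.60 and 8.72 FPKM in IL-2 libraries. In naive libraries it was listed at 0 in 2 and at 0.0417 FPKM in the other. It fell in all 3 cocktail populations against IL-2 cells, with log2 fold changes of -3.04, -2.53 and -2.24 (SE 0.0416). Its partner Rxra was at 2.54, 2.65 and 2.72 FPKM in the cocktail populations, 0.530 FPKM in IL-2 cells and 3.70 FPKM in naive cells, and rose in all 3 cocktail populations against IL-2 cells (1.21, 1.25 and 1.28). Acaca, whose product makes the malonyl-CoA that inhibits Cpt1a, averaged 7.41, 11.9 and 11.7 FPKM in the cocktail populations, 17.8 FPKM in IL-2 cells and 7.45 FPKM in naive cells. It rose in IL-2 over naive cells by 1.15 and fell in cocktail CD44loCD62L+ against IL-2 cells by 1.16. Ppargc1b averaged 1.48, 1.45 and 1.21 FPKM in the cocktail populations, 1.08 FPKM in IL-2 cells and 3.86 FPKM in naive cells. Over naive cells, Ppargc1b fell in cocktail CD44+CD62L- (-1.14) and IL-2 cells (-1.23). It was not called in cocktail CD44loCD62L+ (-0.97) and CD44+CD62L+ cells (-0.99). Ppara and Ppargc1a stayed below the filter. At any fold 14, 13 and 13 of the 17 regulators were lower in the cocktail populations over naive cells, and 1, 4 and 2 higher. Of all 11242 genes tested, 5105, 5120 and 5117 were lower and 4851, 5078 and 5075 higher there. In IL-2 over naive cells 9 of the 17 were lower and 7 higher.

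The TCA cycle, which oxidises the acetyl-CoA that fatty acid oxidation yields, had 18 tested genes, of which 7 rose and 1 fell in IL-2 over naive cells (median 0.52), 44.4% called beside 31.3% of all genes. Under quantile normalization 4 of the 18 were called there (22.2%). Against IL-2 cells, cocktail CD44loCD62L+ cells had 2 falls, among them Fh1, no rise and a median of -0.60. The called share was 11.1%, beside 15.8% of all genes. At any fold 16 of 18 genes were lower and 2 higher, beside 5152 lower and 4835 higher of all 11242 genes tested. Under quantile normalization 1 of the 18 was called there. Fh1, the fumarase, averaged 33.5 ± 0.733, 52.1 ± 0.294 and 51.4 ± 2.13 FPKM in the cocktail populations, 79.3 ± 0.848 FPKM in IL-2 cells and 25.8 ± 0.725 FPKM in naive cells (SD, n = 3 each). In each cocktail population over naive cells, 0 of the 18 genes rose and 1 fell. That is 5.56% called, beside 17.7%, 22.8% and 22.5% of all genes. The gene that fell was Idh2 in all 4 cultured populations over naive cells, with log2 fold changes of -1.53, -1.37 and -1.35 in the cocktail populations and -1.85 in IL-2 cells. Fh1 and Sdhd were just short of a rise over naive cells in both cocktail CD44+ populations. Their log2 fold changes were 0.98 and 0.99 in CD44+CD62L+ and 0.97 and 0.98 in CD44+CD62L- cells. With equal sums without small RNA genes, 3 and 2 of the 18 were called in these populations (16.7% and 11.1%). Quantile normalization left 1 called in each cocktail population over naive cells.

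The profiles most like those of 3 members were sought among 10049 tested genes, without predicted genes, small RNA genes and the members, by the root mean square difference of log2 group means over the 5 populations after each gene was centred. Nearest to Acadl was Ctnna1 (difference 0.0401), at 20.8, 27.2 and 28.8 FPKM in the cocktail populations, 33.2 FPKM in IL-2 cells and 4.34 FPKM in naive cells, followed by Fbxw8, Cyfip1, Sord and Spry2. Nearest to Cpt1a was Psmd5 (0.0276), at 19.5, 25.5 and 27.2 FPKM in the cocktail populations, 32.1 FPKM in IL-2 cells and 25.4 FPKM in naive cells, followed by Prps1, Tnpo1, Dhx9 and Bnip2. Nearest to Lipa was Sorcs2 (0.0535), a gene of low level, at 0.165, 0.163 and 0.176 FPKM in the cocktail populations, 0.0205 FPKM in IL-2 cells and 1.83 FPKM in naive cells, followed by Ccdc142, Traf5, Syk and Ptk2. Syk and Ptk2 were also low, at 0.301 FPKM or less in each cultured mean, and Spry2 was at 0.0916 FPKM in naive cells. None of the genes named as nearest was on the lists examined here.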

How the data were processed

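FPKM values of 15 libraries were deposited by the authors in 1 table, with 23284 entries by gene symbol. Per the submitters' processing notes, TopHat2 2.0.9, Cuffdiff 2.1.1 and the mouse build mm10 were used. What annotation, settings or strand rule applied is not given in the sources used here. Of 28043 ratios of low values, 20.1% lay within 0.05 of a whole number (10% by chance), so whole reads were not recovered and depth is unknown. Eef1a1, which every cell uses, was at 0 in all 15 libraries, so a 0 may be an estimate that failed.

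The test took genes whose mean reached 1 FPKM in 1 or more populations. Values were taken to log2(FPKM + 1), which understates changes of low genes, and fitted with limma 3.58.1 in R 4.3.3 (eBayes with trend) using the 15 libraries together and no covariate besides population, with Benjamini-Hochberg adjustment over all genes tested. The steps were tested on simulated data. Each of the 10 pairs of populations was compared. Members and gene lists were chosen with earlier results of these data known. From each list up to 4 called genes with the widest range of group means were named, and the 5 most alike profiles for Cpt1a, Lipa and the member of widest range. Alternatives were pseudocounts of 0.1 and 5, no filter or 5 FPKM, 3 other scalings, the 6 libraries compared alone, a replicate block, no variance trend, a fold minimum of 0.5 and leaving out each library. Gene spans are from GENCODE for GRCm38, and promoters from RefSeq for GRCm38.p6, which matched 10 of 10 members. Replicate numbers did not pair libraries. Trac, Trbc1, Trbc2, Adgre1 and Hbb-bt were not used here, and 1 gene that the rule names is not reported here.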

Additional observations from a re-analysis of the deposited data

How the results depend on the processing

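Counts of called members moved by over 1.5 times with the fold minimum and with no other choice. At a log2 minimum of 0.5, members called were 4 in cocktail CD44loCD62L+ and 1 in cocktail CD44+CD62L- over IL-2 cells (0 and 0 at a minimum of 1), and 5 in cocktail CD44+CD62L+, 4 in cocktail CD44+CD62L- and 5 in IL-2 over naive cells (2, 2 and 3 at a minimum of 1). Cpt2 made it 4 in IL-2 over naive cells with a pseudocount of 0.1. Leaving out any 1 library changed no count of called members. The calls of Acadl and Lipa were kept in all 18 settings, at 1.96 to 2.74 for Acadl and -1.65 to -1.06 for Lipa, and that of Acadm in 17, where a pseudocount of 5 gave -0.90. Counts over all genes moved by over 1.5 times with a pseudocount of 5 in all 10 comparisons, for example to 2038 from 3519 in IL-2 over naive cells and to 911 from 1771 in cocktail CD44loCD62L+ over IL-2 cells. A pseudocount of 0.1 moved 5 of them, for example to 1429 from 917 in cocktail CD44+CD62L+ over IL-2 cells. With the fold minimum of 0.5 they became 1291 to 6702, except for 120 between the 2 cocktail CD44+ populations. The replicate block left 3 members called in IL-2 over naive cells, 2 in each cocktail population over naive cells and 0 elsewhere. Only 2 of 30 same-numbered library pairs had deviations correlated above 0.1 (range -0.238 to 0.184), and 2 of 15 libraries matched their own number best. Among uncalled differences, quantile normalization turned 5 signs and equal sums without small RNA genes turned 3, all below 0.16 in size. Leaving out a library turned the sign of uncalled differences of Slc25a20, Acadm and Lipa. Unknown depth and technical replicates limit all values.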
